A study of Mus musculus with 12 samples.

Results

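Nfe2l2, Keap1, Nqo1, Gclc, Gclm, Hmox1, Txnrd1, Srxn1, Mt1 and Mt2 are 10 genes of the defence against oxidants and metals: the transcription factor NRF2 with its sensor, well known targets of NRF2, and the main pair of metallothioneins. They were chosen by name, with earlier results of these data known. Counts of members set beside those of all probe sets therefore describe the members and are not a test. All of their probe sets assigned to a single gene symbol were taken, which gave 20 probe sets of 45101 on the array and 10 genes of 18193. Liver and quadriceps muscle of 4-week-old C57BL/6 mice were measured on Affymetrix arrays. In the NP+tau group the dams ate a normal protein diet with 20% casein and drank water with 1% taurine from day 1 of pregnancy until birth, and in the NP group they ate the same diet with plain water. The question was whether taurine given to the mother was still visible in gene expression of the offspring after weaning. Each diet had 3 samples in each tissue, every pup from another dam, with liver and muscle taken from the same animals according to the methods of the study. Values are log2 expression values made by the authors for each tissue apart, so levels were compared within a tissue and within a probe set only, and each difference is NP+tau minus NP.

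NRF2, encoded by Nfe2l2, drives genes that make glutathione, reduce thiols and detoxify quinones and haem. KEAP1 is an adaptor that hands NRF2 to the proteasome in unstressed cells and releases it when oxidants modify its cysteines. NRF2 then pairs with small MAF proteins at antioxidant response elements (AREs). Metallothioneins are small cysteine-rich proteins that bind zinc and copper. Their genes respond to zinc through metal response elements (MREs), and also to glucocorticoids, inflammation and oxidants. Taurine itself is made from cysteine, the amino acid that also limits glutathione synthesis.

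Promoters of 3 members are shown, picked because they carry the letters of the 2 elements. Their match counts beside those of all windows are therefore a description and not a test. RefSeq windows of build GRCm38.p6 were at hand for 8 of the 10 genes, not for Hmox1 and Gclc, and run from 250 bases before to 30 bases after a transcript start. The letters TGACNNNGC and TGAGNNNGC were searched for the ARE, and TGCACNC and TGCGCNC for the MRE, on both strands. Capitals mark the matches. Srxn1 lies on the plus strand at chr2:152105274-152105553, Mt1 on the plus strand at chr8:94178839-94179118 and Mt2 on the plus strand at chr8:94172368-94172647.

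Srxn1: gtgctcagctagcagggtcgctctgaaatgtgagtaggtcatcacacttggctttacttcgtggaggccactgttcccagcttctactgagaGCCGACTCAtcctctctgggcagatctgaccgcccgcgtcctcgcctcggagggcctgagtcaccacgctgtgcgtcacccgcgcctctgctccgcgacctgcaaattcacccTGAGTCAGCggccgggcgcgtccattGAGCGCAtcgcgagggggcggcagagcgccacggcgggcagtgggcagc

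Mt1: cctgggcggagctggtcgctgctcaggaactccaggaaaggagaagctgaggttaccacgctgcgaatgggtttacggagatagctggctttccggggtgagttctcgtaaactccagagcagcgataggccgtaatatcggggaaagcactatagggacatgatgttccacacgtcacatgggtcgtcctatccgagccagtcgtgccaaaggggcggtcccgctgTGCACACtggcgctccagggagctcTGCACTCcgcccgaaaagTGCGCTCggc

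Mt2: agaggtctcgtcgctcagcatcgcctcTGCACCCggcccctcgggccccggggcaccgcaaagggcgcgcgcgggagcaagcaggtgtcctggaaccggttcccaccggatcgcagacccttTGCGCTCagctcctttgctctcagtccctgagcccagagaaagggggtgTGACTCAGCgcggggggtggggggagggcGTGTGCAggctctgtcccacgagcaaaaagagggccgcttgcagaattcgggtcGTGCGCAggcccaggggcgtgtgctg

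In the Srxn1 window 2 ARE matches began at bases -158 and -45 from the start, with 1 MRE match at -19. Of all 32851 windows of the same length, 26.0% held at least 1 ARE match and 4.01% at least 2. Mt1 held 3 MRE matches, at bases -23, 3 and 21, and Mt2 held 4, at -223, -128, -50 and 5, together with 1 ARE match at -79. At least 1 MRE match was present in 24.1% of all windows, at least 3 in 1.73% and at least 4 in 0.405%. The Mt1 window belongs to a start inside the gene as annotated, which spans 94178883 to 94180327 on chromosome 8. In the other windows, Gclm held 1 ARE and 2 MRE matches, Nfe2l2 held 1 ARE match, Txnrd1 held 1 ARE match in 1 of its 3 windows, and Keap1 and Nqo1 held none. Such matches describe the letters of these windows and are not measured binding sites. In the same build Nfe2l2 and Srxn1 lie on chromosome 2, Gclm on 3, Hmox1, Mt2, Mt1 and Nqo1 on 8, Keap1 and Gclc on 9 and Txnrd1 on 10.

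All 20 probe sets passed the filter on dim values in both tissues, so every member is accounted for. Both tissues carried their own markers, with a mean log2 value of 7 hepatocyte genes between 13.2 and 13.8 in liver and of 8 muscle fibre genes between 14.0 and 14.3 in muscle. Xist, which is transcribed from the inactive X chromosome, was at 11.1, 5.96 and 5.07 in NP+tau livers 1, 2 and 3, against 11.7, 11.6 and 11.8 in NP livers, and muscle had the same pattern. Sex and diet were therefore partly confounded, and their parts cannot be told apart for NP+tau replicates 2 and 3. NP+tau replicate 1 was an unusual liver array: over all probe sets it deviated from the median of the livers by 0.279 (median absolute value), and the other livers by 0.0634 to 0.111. Results of the members are therefore given below with and without the arrays on which they rest. The other gene lists are given with all arrays only.

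In liver, all 10 members had a lower mean in NP+tau offspring, but no difference passed the test of limma (adjusted p under 0.05 for 0 of 10 members and 0% of all probe sets). The background was also tilted, with 54.2% of 29274 probe sets below 0 and a median difference of -0.04 over all of them, against a median of -0.52 over the 10 members. Of all 20 member probe sets, 17 were below 0. Haem oxygenase 1 and metallothionein 1 stood out. Their NP+tau and NP values did not overlap, and they were the only 2 members at an unadjusted p under 0.05, where 3.99% of all probe sets were called in that direction. Groups that did not overlap, with NP+tau lower, made up 9.11% of all probe sets.

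Hmox1 encodes the enzyme that opens haem into biliverdin, iron and carbon monoxide. Its log2 values in liver were 6.57, 7.48 and 7.25 in NP+tau replicates 1, 2 and 3, against 10.04, 8.40 and 8.29 in NP replicates 1, 2 and 3. Every NP+tau liver lay below every NP liver, and NP replicate 1 lay 1.64 above the next sample. The mean was 7.10 ± 0.47 in NP+tau and 8.91 ± 0.98 in NP (SD, n = 3 each). The difference was -1.81 on the log2 scale (SE 0.50, 95% interval -2.99 to -0.62), a fold of 0.286. In limma its unadjusted p was 0.00872, rank 165 of all probe sets, and its adjusted p 0.72. Without NP replicate 1 the difference shrank to -1.24, and without NP+tau replicate 1 as well to -0.97, still below 0.

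Mt1 in liver read 11.86, 12.42 and 12.27 in NP+tau replicates, against 13.59, 13.25 and 12.89 in NP replicates. Every NP+tau liver lay below every NP liver, with an SD of 0.29 in NP+tau and of 0.35 in NP. The difference was -1.06 (SE 0.25, 95% interval -1.65 to -0.47), a fold of 0.480, with an unadjusted p of 0.00388 and an adjusted p of 0.72 in limma. Leaving out one replicate at a time, or NP+tau replicate 1 and NP replicate 1 together, gave differences between -1.23 and -0.72. The brightest probe set of Mt1 carries the suffix that Affymetrix gives to probes shared by several transcripts. The second probe set of Mt1 was dimmer, with most values near the filter limit of 4.60. It was at 4.69, 4.91 and 5.31 in NP+tau livers and 5.42, 7.39 and 5.37 in NP livers. The groups were only narrowly apart, and the difference of -1.09 (SE 0.54) came largely from NP replicate 2.

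Mt2, the neighbour of Mt1 on chromosome 8, had 10.05, 9.67 and 10.42 in NP+tau livers, against 12.22, 11.54 and 9.18 in NP livers. NP replicate 3 was the lowest of the 6 livers, so that the groups overlapped and the difference of -0.94 had an SE of 0.73. It was -1.84 without NP replicate 3 and -0.32 without NP replicate 1, so that single livers decided its size. NP replicates 1 and 2 lay above all NP+tau livers for both metallothioneins.

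**Figure D1:**
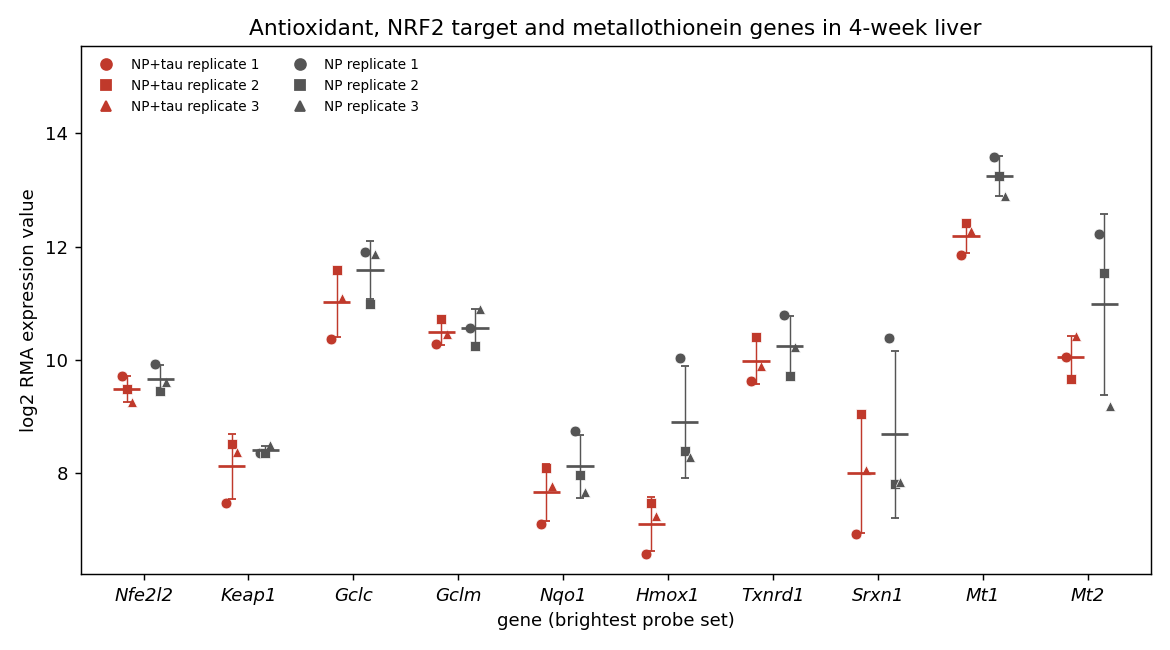
Expression in liver (log2 RMA value, vertical axis) of the brightest probe set of each of the 10 genes (horizontal axis), for NP+tau (red, left) and NP (grey, right); marker shape gives the replicate, the short line the mean and the bar the SD of 3 samples. Hmox1 and Mt1 are the 2 genes whose groups do not overlap, and NP replicate 1 (grey circle) is the highest sample for 8 of the 10.

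Among the thiol and quinone enzymes, Srxn1, which reduces over-oxidised peroxiredoxins, spanned the widest range within a diet. It was at 6.93, 9.05 and 8.05 in NP+tau livers and at 10.39, 7.81 and 7.86 in NP livers. NP replicate 1 again lay highest, by 1.34, and NP replicates 2 and 3 lay below NP+tau replicates 2 and 3, so the difference of -0.68 (SE 0.81) turned to 0.18 without NP replicate 1. Of its other 3 probe sets, 2 read -0.83 and -0.84 and the last read 0.01. Nqo1, the quinone reductase, read 7.11, 8.10 and 7.78 in NP+tau livers and 8.75, 7.97 and 7.67 in NP livers, a difference of -0.46 (SE 0.36). Txnrd1, the cytosolic thioredoxin reductase, read 9.63, 10.41 and 9.89 in NP+tau livers and 10.79, 9.71 and 10.23 in NP livers. Its difference was -0.27 (SE 0.33), and its other probe sets differed in sign, with -0.60 and 0.14.

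The subunits of glutamate cysteine ligase, which makes the first bond of glutathione, overlapped between diets. Gclc, the catalytic subunit, was at 10.37, 11.59 and 11.09 in NP+tau livers, against 11.90, 10.99 and 11.88 in NP livers, a difference of -0.57 (SE 0.38). It was -0.25 without NP+tau replicate 1, -0.87 without NP replicate 2 and -0.09 without NP+tau replicate 1 and NP replicate 1 together. Gclm, the modifier subunit, was at 10.28, 10.72 and 10.47 in NP+tau livers, against 10.56, 10.24 and 10.91 in NP livers, a difference of -0.08 (SE 0.23, 95% interval -0.63 to 0.47). Of the regulators, Nfe2l2 had 9.71, 9.50 and 9.26 in NP+tau livers and 9.94, 9.45 and 9.61 in NP livers, a difference of -0.18 (SE 0.21, 95% interval -0.67 to 0.32). Keap1 had 7.47, 8.52 and 8.37 in NP+tau livers and 8.35, 8.37 and 8.50 in NP livers. Its difference of -0.29 (SE 0.29) rested on NP+tau replicate 1, without which it was 0.04. The second Keap1 probe set read 6.56, 7.78 and 7.73 in NP+tau livers and 7.71, 7.98 and 8.09 in NP livers. There the difference was -0.57 (SE 0.35), and that of the second Nfe2l2 probe set was -0.58 (SE 0.36).

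Single arrays carried much of the shift in liver. NP replicate 1 was the highest of the 6 livers for 8 of 10 members by their brightest probe set, and for 11 of all 20 member probe sets. It was highest for 25.3% of all probe sets. For 2 members, Hmox1 and Srxn1, it lay at least 1 above each other array, as it did for 1.77% of all probe sets. NP+tau replicate 1 was the lowest liver for 7 of 10 members, and for 43% of all probe sets. Without either array 8 members remained below 0, and without both 5 of 10 did, with a median of -0.04. Nfe2l2, Gclc, Hmox1, Mt1 and Mt2 were below 0 in each of these fits.

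Markers of other cells moved with the same livers, and their part in the result was not tested. Of 14 genes that mark macrophages, which in liver are mostly Kupffer cells, 14 lay lower in NP+tau, as did 54.2% of all probe sets. Of the 14 genes, 10 were at an unadjusted p under 0.05 (3.99% of all probe sets in that direction) and 0 at an adjusted p under 0.05 (limma). Their mean level was 7.30 to 8.29 in NP+tau livers and 8.69 to 9.64 in NP livers. Kupffer cells take up aged red cells and are a known site of Hmox1 expression. The scavenger receptor Marco was at 7.99, 6.91 and 8.22 in NP+tau livers and at 10.26, 9.23 and 9.77 in NP livers. In whole tissue, fewer cells of a type and less RNA per cell cannot be told apart. Of 10 neutrophil markers, 9 were below 0, 4 of them at an unadjusted p under 0.05 and 0 at an adjusted p under 0.05 (limma). Their mean level was 4.94 to 5.45 in NP+tau livers, near the filter limit of 4.60. In NP livers 1, 2 and 3 it was 8.34, 6.02 and 6.17. Endothelial markers (4 of 4) were also all below 0. Their mean was 6.19, 6.85 and 7.29 in NP+tau livers 1, 2 and 3 and 7.35, 7.38 and 7.09 in NP livers. Of 4 adipocyte markers, the 2 above the filter were below 0, but the median difference of all 4 was 0.04. The filter takes the highest value of the 6 livers, so that livers of 1 diet alone can carry a probe set past it. Of hepatocyte, cholangiocyte and erythroid markers, 3 of 7, 1 of 4 and 2 of 4 were below 0. NP replicate 1, the liver with the highest Hmox1, Srxn1, Mt1 and Mt2, also had the highest neutrophil mean (8.34), macrophage mean (9.64) and acute phase mean (10.3). NP+tau livers had acute phase means of 8.94 to 9.03 and the other NP livers of 9.08 and 9.37. Of 7 genes that respond to glucocorticoids, 4 were below 0 and 3 above. Their mean was 7.68, 7.78 and 8.89 in NP+tau livers 1, 2 and 3 and 8.93, 8.69 and 8.15 in NP livers. The 14 macrophage markers all lay above the filter limit of 4.60 in the NP livers. The neutrophil gene S100a8 was at 6.52, 5.49 and 5.87 in NP+tau livers and at 12.75, 8.74 and 8.81 in NP livers.

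In muscle, no member passed the test of limma either (adjusted p under 0.05 for 0 of 10 members and 0% of all probe sets, unadjusted p under 0.05 for 0 of 10). Of the 10 members, 9 had a difference above 0, against 51.8% of all probe sets, with a median of 0.23. Of all 20 member probe sets, 14 were above 0. The diet means are a poor description of these values, because one array dominated them. NP+tau replicate 2 was the highest of the 6 muscles for all 10 members by their brightest probe set, and for 17 of all 20 member probe sets. It was highest for 22.2% of all probe sets. For 5 members it lay at least 1 above each other array, as it did for 1.69% of all probe sets.

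Srxn1 showed this most clearly, with 6.84, 10.77 and 7.02 in NP+tau muscles and 6.98, 6.26 and 6.96 in NP muscles. The other muscles lay within a narrow range, and NP+tau replicate 2 lay 3.75 above the next. Hmox1 read 5.88, 9.87 and 5.81 in NP+tau muscles and 6.91, 5.99 and 6.32 in NP muscles, a gap of 2.95. Gclm read 8.08, 11.23 and 8.50 in NP+tau muscles and 8.98, 8.16 and 8.02 in NP muscles, a gap of 2.25. The sulfiredoxin, haem oxygenase and modifier subunit genes were thus high together in one muscle. Txnrd1, at 9.60, 11.12 and 9.42 in NP+tau muscles and 9.66, 9.21 and 9.53 in NP muscles, stood 1.46 above the next. The gaps were smaller for Nqo1, which was at 5.54, 6.96 and 5.67 in NP+tau muscles and at 6.56, 5.37 and 5.73 in NP muscles. Gclc was at 7.49, 8.38 and 8.11 in NP+tau muscles and at 8.37, 7.53 and 7.53 in NP muscles, so that NP replicate 1 equalled NP+tau replicate 2 to within 0.01.

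For the regulators NP+tau replicate 2 lay above the next muscle by 0.40 (Nfe2l2) and 0.11 (Keap1). Nfe2l2 had 8.99, 9.52 and 9.02 in NP+tau muscles and 9.11, 8.80 and 8.81 in NP muscles, a difference of 0.26 (SE 0.19, 95% interval -0.19 to 0.72). Keap1 had 8.96, 9.33 and 9.13 in NP+tau muscles and 9.22, 9.14 and 8.98 in NP muscles, a difference of 0.03 (SE 0.16). Its second probe set disagreed, at 8.04, 8.33 and 7.48 in NP+tau muscles and 8.70, 8.38 and 8.35 in NP muscles. There the groups did not overlap, as for 7.77% of all probe sets with NP+tau lower, and the difference was -0.53 (SE 0.24, adjusted p = 0.71 in limma).

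**Figure D2:**
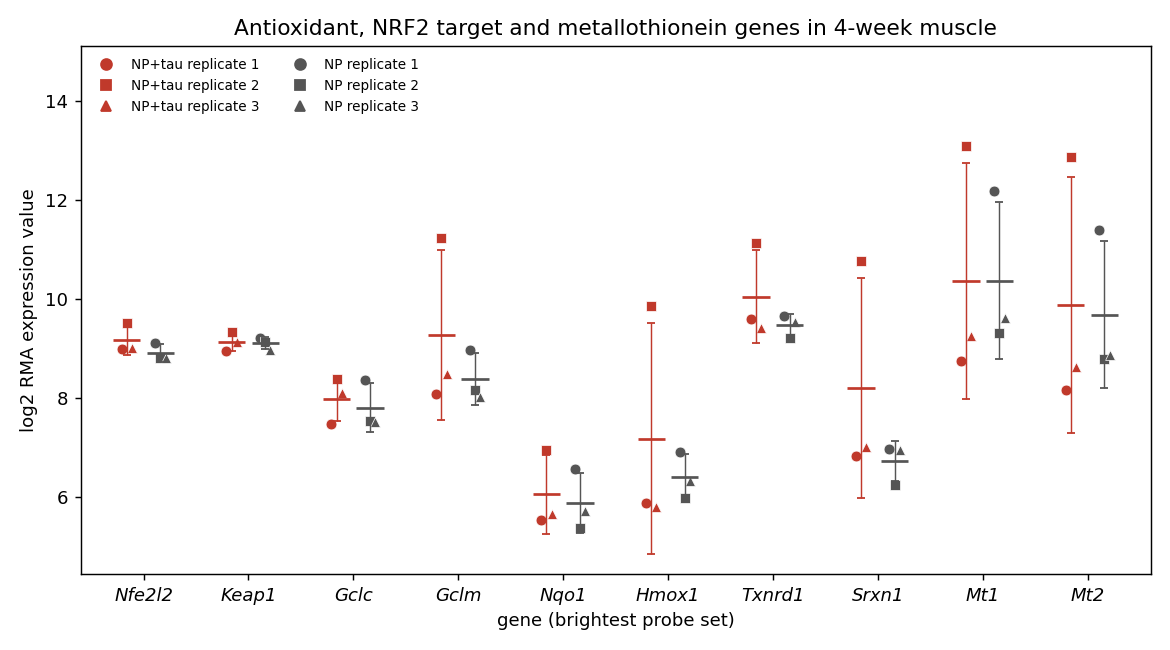
Expression in quadriceps muscle (log2 RMA value, vertical axis) of the brightest probe set of each of the 10 genes (horizontal axis), for NP+tau (red, left) and NP (grey, right); marker shape gives the replicate, the short line the mean and the bar the SD of 3 samples. NP+tau replicate 2 (red square) is the highest sample for all 10 genes, and NP replicate 1 (grey circle) is high with it for Mt1 and Mt2.

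The metallothioneins were high in 2 muscles, one of each diet. Mt1 was at 8.74, 13.09 and 9.24 in NP+tau muscles, against 12.18, 9.31 and 9.62 in NP muscles. Mt2 was at 8.17, 12.86 and 8.63 in NP+tau muscles, against 11.39, 8.79 and 8.87 in NP muscles. The means were thus nearly equal, with differences of -0.01 (SE 1.25, 95% interval -2.97 to 2.94) for Mt1 and 0.20 (SE 1.30, 95% interval -2.88 to 3.28) for Mt2, and the intervals leave room for large changes in either direction. NP replicate 1 was second to NP+tau replicate 2 for 9 of 10 members. It was the highest muscle for 21.3% of all probe sets, for none of the members by their brightest probe set and for 2 of all 20 member probe sets.

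Other stress genes set these 2 muscles apart in different ways, and their part was not tested. The mean of 6 heat shock genes was 11.4 in NP+tau replicate 2, against 9.70 and 9.92 in NP+tau replicates 1 and 3 and 8.97 to 9.58 in NP muscles. Hspa1b, an inducible HSP70 gene, read 8.62, 11.67 and 8.96 in NP+tau muscles and 8.14, 7.72 and 8.56 in NP muscles. For 5 of the 6 heat shock genes the NP+tau muscles all lay above the NP muscles, as for 7.33% of all probe sets. The mean of 7 genes that respond to glucocorticoids was instead highest in NP replicate 1, at 10.7, against 9.57 to 10.04 in NP+tau muscles and 9.73 and 9.50 in NP replicates 2 and 3. Fkbp5, a chaperone induced by glucocorticoids, was at 6.84, 9.48 and 8.20 in NP+tau muscles and at 10.99, 7.76 and 8.46 in NP muscles, highest in NP replicate 1 and next in NP+tau replicate 2. The list was not high as a whole in NP+tau replicate 2, which was the lowest of the 6 muscles for 4 of the 7 genes (Tsc22d3, Sgk1, Zbtb16 and Klf9). Neutrophil markers did not follow the members, with a mean of 7.04 in NP+tau replicate 2 and 7.32 in NP replicate 1 and the highest mean, 9.58, in NP replicate 3.

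**Figure D3:**
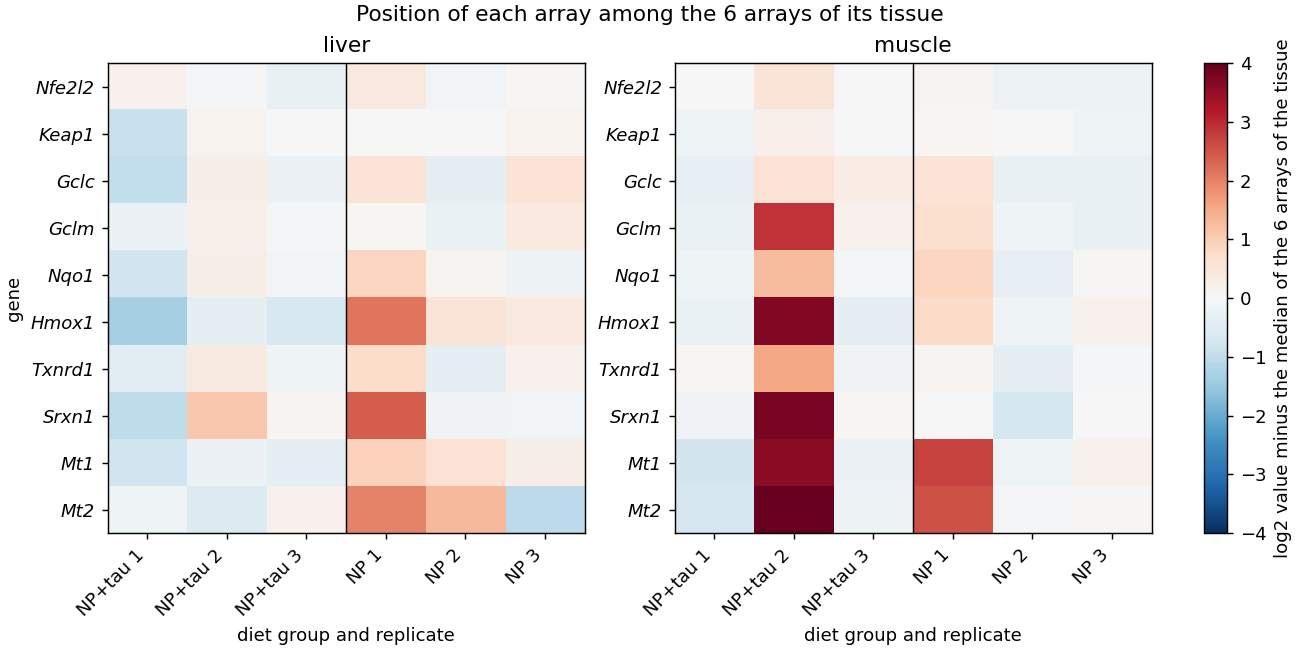
Log2 value of the brightest probe set of each gene (rows) in each array (columns, NP+tau left of the line and NP right of it), minus the median of the 6 arrays of the tissue, for liver and muscle. The column of NP+tau replicate 2 in muscle is above the median for all 10 genes, whereas in liver the column of NP replicate 1 is highest for 8 of 10.

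Without NP+tau replicate 2, 3 of 10 members were above 0 in muscle, and the median moved to -0.08. Srxn1 then differed by 0.20 and Hmox1 by -0.56. The liver with the same replicate number shared the pattern only in part. NP+tau replicate 2 was the highest liver for 1 of 10 members, Keap1, by 0.02, and second for 4 (Gclm, Nqo1, Txnrd1 and Srxn1). It was the highest liver for 4 of the 20 member probe sets and for 16.2% of all probe sets. Its heat shock mean of 9.58 was the highest of the 6 livers (7.90 and 8.69 in the other NP+tau livers, 7.76 to 8.43 in NP livers).

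**Figure D4:**
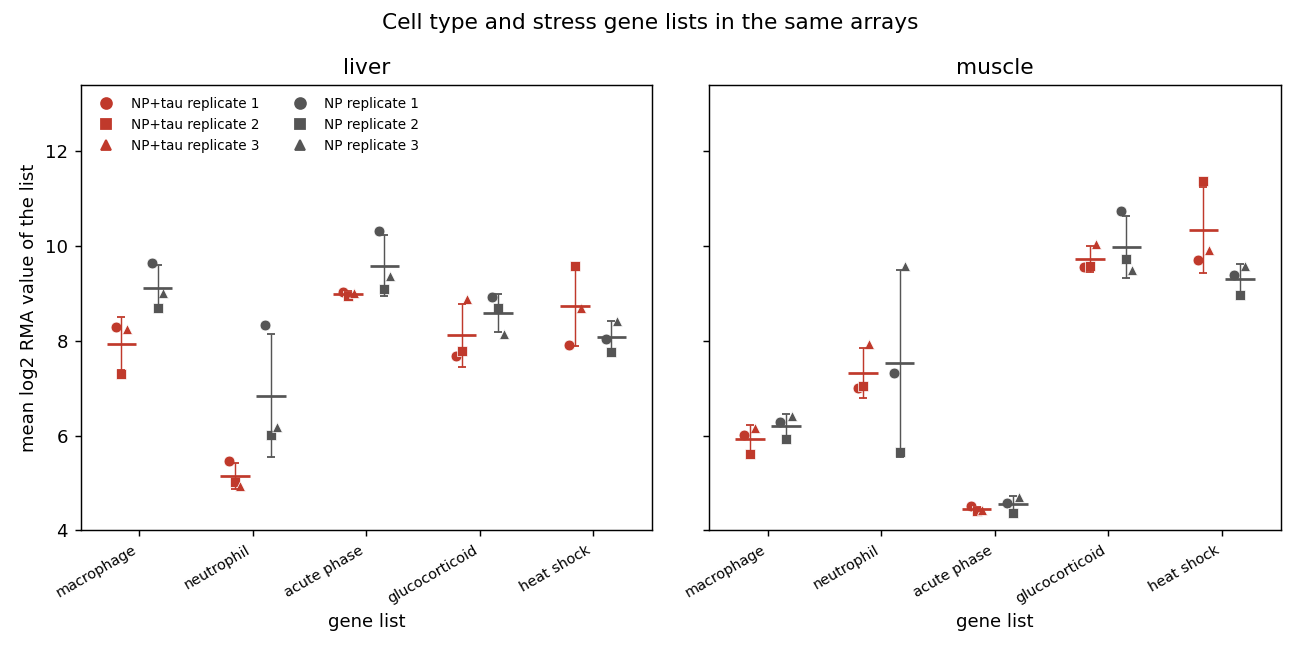
Mean log2 RMA value (vertical axis) of 5 gene lists (horizontal axis) in liver and muscle, for NP+tau (red, left) and NP (grey, right); marker shape gives the replicate, the short line the mean and the bar the SD of 3 samples. Macrophage and neutrophil means of the 3 NP+tau livers lie below those of the 3 NP livers, and the heat shock mean is highest in NP+tau replicate 2 in both tissues.

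The effect of maternal taurine on the members was then compared between tissues as the liver difference minus the muscle difference. All 10 values were below 0, against 59.3% of all probe sets, with a median of -0.91, against -0.13 over all probe sets. None passed, with an adjusted p under 0.05 for 0 of 10 members and 0% of the 25622 probe sets kept in both tissues, and an unadjusted p under 0.05 for 0 of 10 members and 7.8% of all. With the animal as a block, taking replicate numbers to mark the same animal in both tissues, 4 of 10 members (Gclc, Hmox1, Txnrd1 and Srxn1) and 11.7% of all probe sets were at an unadjusted p under 0.05, and 0 at an adjusted p under 0.05. The largest of the 10 was that of Hmox1, with -2.58 (SE 1.27, adjusted p = 0.54 in limma), followed by Srxn1 with -2.15 (SE 1.40, adjusted p = 0.54). Without NP+tau replicate 2 of both tissues, 8 of 10 values were below 0 and the median was -0.41. A different response of the 2 tissues was thus not shown for any member.

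**Figure D5:**
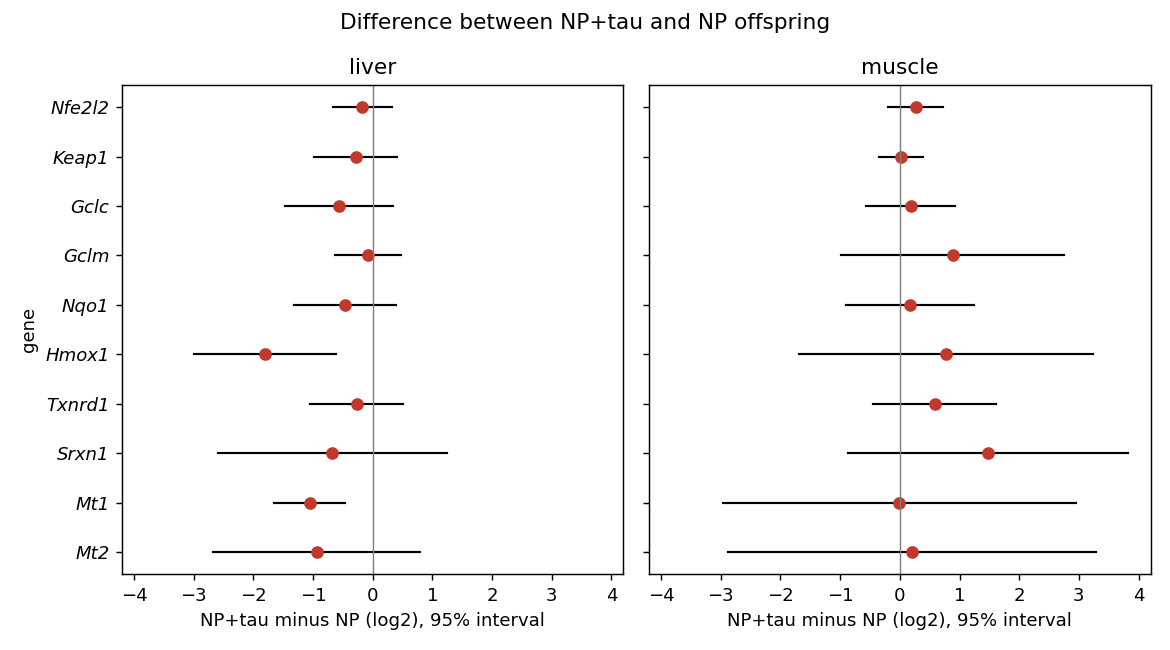
Log2 difference between diets, NP+tau minus NP (horizontal axis), with its 95% interval from limma for the brightest probe set of each gene (vertical axis) in liver and in muscle. In liver, the intervals of Hmox1 and Mt1 lie below 0, unadjusted for the number of probe sets, and in muscle every interval spans 0.

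Of 84 other genes of these pathways, 78 had a probe set of their own, and 0 passed in either tissue at an adjusted p under 0.05 (limma). In liver, 48 of the 74 above the filter were below 0 (background 54.2%) and 26 above, with a median of -0.18. At an unadjusted p under 0.05, 3 were lower in NP+tau (background 3.99%) and 0 higher (background 0.7%). By smallest p these were Sod3, the extracellular superoxide dismutase, with -0.82 (SE 0.23), Msrb3, a methionine sulfoxide reductase, with -0.92 (SE 0.35), and Bach1, the repressor that competes with NRF2 at AREs and holds down Hmox1, with -0.43 (SE 0.17). Sod3 was at 7.45, 7.64 and 8.20 in NP+tau livers and 8.48, 8.56 and 8.71 in NP livers. Bach1 was at 7.98, 8.03 and 7.93 in NP+tau livers and 8.55, 8.45 and 8.23 in NP livers. Groups that did not overlap, with NP+tau lower, were 8 of the 74 (background 9.11%), so that both counts were near the background. The fourth was Me1, the malic enzyme that supplies NADPH, with 1.03 (SE 0.50). By group, 9 of 11 NRF2 regulators and partners and 13 of 17 quinone and xenobiotic enzymes and exporters were below 0 (background 54.2%). Of enzymes of superoxide and peroxide removal, 6 of 10 were above 0 (background 45.8%). The mean over all NRF2 regulators with a probe set was 7.32, 7.77 and 7.60 in NP+tau livers 1, 2 and 3. In NP livers it was 7.75, 7.74 and 7.71. The quinone and xenobiotic group had means of 9.39, 10.01 and 9.72 in NP+tau livers and 10.40, 9.81 and 9.78 in NP livers. NP replicate 1 was the highest liver for 30 of the 74 (background 25.3%), and by at least 1 for 4 (background 1.77%). These were Gpx3, a secreted glutathione peroxidase, Pgd, which forms NADPH in the pentose phosphate pathway, Gsta4, a glutathione transferase, and Abcc1, an exporter of glutathione conjugates.

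In muscle, 40 of 70 pathway genes were above 0 (background 51.8%) and 30 below, with a median of 0.08. At an unadjusted p under 0.05, 4 were higher in NP+tau (background 3.72%) and 1 lower (background 2.4%). The higher were Me1 with 0.55 (SE 0.18), Cat, the peroxisomal catalase, with 0.77 (SE 0.26), Glrx, a glutaredoxin, with 0.69 (SE 0.23), and Gstp1, a glutathione transferase, with 0.57 (SE 0.20). Me1 was at 9.71, 9.59 and 9.40 in NP+tau muscles and 8.72, 9.20 and 9.14 in NP muscles, without the excess in NP+tau replicate 2 seen for the members. The lower was Txnip, the inhibitor of thioredoxin, chosen by name after its value was seen, with -0.90 (SE 0.32). NP+tau replicate 2 was the highest muscle for 21 of the 70 (background 22.2%) and lay at least 1 above each other array for 5 (background 1.69%). The 5, named after their values were seen, were Mafg, a small MAF partner of NRF2, Gsr, the glutathione reductase, Txn1, thioredoxin itself, Pgd, and Osgin1, an oxidative stress response gene. Gsr was at 7.58, 9.57 and 7.35 in NP+tau muscles and at 7.69, 7.11 and 7.64 in NP muscles, and Txn1 was at 10.61, 12.04 and 10.59 in NP+tau muscles and at 10.78, 10.49 and 10.74 in NP muscles.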

How the data were processed

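The authors deposited log2 expression values of Affymetrix arrays, which they quantile normalised for each tissue apart and summarised with RMA in R and Bioconductor. The deposited table held 45101 probe sets, 64 of them controls, for 12 samples. RMA shrinks differences between dim probe sets, and quantile normalisation hides a shift shared by most genes. Groups came from the labels. Replicates are separate animals, and 6 arrays per tissue limit the precision of each value.

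Control probe sets were removed, and probe sets whose highest value in a tissue reached the 35th percentile of such values were kept (29274 in each tissue, limits 4.60 in liver and 4.49 in muscle, 25622 in both). NP+tau was compared with NP with limma 3.58.1 (lmFit, eBayes; R 4.3.3), two-sided, with Benjamini-Hochberg adjustment over all probe sets kept and a threshold of 0.05; intervals are 95% limma intervals. The difference between tissues was fitted over all 12 arrays. For 4-week samples the methods of the study name gene set enrichment, not used here, and SAM on mitochondrial genes, so limma was chosen. Symbols came from the platform annotation of the series: 34958 probe sets had 1 symbol, 932 several and 9211 none.

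Values by sample are for the brightest probe set of each member. Of the other pathway genes, up to 4 per tissue with the smallest unadjusted p were named, and genes highest in one array by at least 1 and Txnip were named after their values were seen. Members and gene lists were chosen with earlier results of these data known. The fit was tested on simulated data: with known log2 changes of 1 and 2 it recovered 3% and 50% of the changed probe sets in liver, and 33% and 69% in muscle. Promoter windows came from RefSeq (GRCm38.p6). Figures were drawn with matplotlib 3.10.9. The alternatives were no filter, a stricter filter at the 50th percentile, an intensity trend, array weights, median centring, the Xist level as a covariate, a replicate block, other probe sets and leaving out replicates.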

Additional observations from a re-analysis of the deposited data

How the results depend on the processing

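No member passed an adjusted p of 0.05 in limma in either tissue or in the difference between tissues, except in liver with the Xist level as a covariate, where Keap1 differed by -1.01 (adjusted p = 0.018) and Mt1 by -1.42 (adjusted p = 0.0224). By its construction that fit rests on NP+tau replicate 1 as the only NP+tau liver at the NP level of Xist, and it called 9449 probe sets, against 0 without the covariate and 8 with array weights. Leaving out replicates called between 0 and 9 in liver, with 9 without NP+tau replicate 1, and between 0 and 8 in muscle, with 8 without NP+tau replicate 1. Over the same fits between 5 and 10 members were below 0 in liver and between 3 and 10 above 0 in muscle, where the Xist covariate also left 3.

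Gclc, Hmox1, Mt1 and Mt2 stayed below 0 in liver under every setting. The values that changed sign in liver were, with array weights, 0.0477 for Gclm, 0.0756 for Txnrd1 and 0.32 for Srxn1, with the Xist covariate 0.10 for Nfe2l2, and with another probe set 0.0474 for Gclm, 0.14 for Txnrd1 and 0.0140 for Srxn1. In muscle they were, with array weights, -0.0219 for Keap1 and -0.0553 for Mt2, with centring 0.0375 for Mt1, with the Xist covariate -0.15 for Keap1, -0.33 for Gclc, -0.23 for Gclm, -0.31 for Nqo1, -0.39 for Hmox1 and -1.40 for Mt2, and with another probe set -0.12 for Nfe2l2, -0.53 for Keap1, and -0.17 and -0.20 for Txnrd1. The cause was not tested.

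Leaving out replicates moved the liver difference between -0.49 and 0.0391 for Keap1, -0.24 and 0.0899 for Gclm, -0.69 and 0.12 for Nqo1, -0.53 and 0.18 for Txnrd1 and -1.20 and 0.72 for Srxn1. In muscle it ranged between -0.0679 and 0.12 for Keap1, -0.0119 and 0.46 for Gclc, -0.10 and 1.48 for Gclm, -0.29 and 0.50 for Nqo1, -0.56 and 1.46 for Hmox1, -1.38 and 0.89 for Mt1 and -1.28 and 1.06 for Mt2. The difference between tissues ranged between -1.78 and 0.20 for Mt1 and between -2.00 and 0.53 for Mt2.

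Replicate numbers do not mark a shared animal across diets, and the labels name no batch. With the replicate number as a block, the replicate block fit called 0 probe sets at an adjusted p under 0.05 in liver, 0 in muscle and 0 for the difference between tissues, with 10 members below 0 in liver and 9 above 0 in muscle. For the difference between tissues, the block was taken to be the animal, although the labels do not tie replicate numbers across tissues. With it, 4 members (Gclc, Hmox1, Txnrd1 and Srxn1) were at an unadjusted p under 0.05, against 0 without it, and 2991 of all probe sets were, against 1999. Same-numbered samples of the diets correlated at 0.02, -0.11 and 0.11 in liver and -0.21, -0.27 and 0.33 in muscle. Same-numbered samples of the tissues correlated at 0.22, 0.22 and 0.22 in NP+tau and at 0.01, 0.24 and -0.04 in NP. The coefficients between diets cannot be of the log2 values themselves, because livers deviated from their median by only 0.0634 to 0.279 (median absolute value). Without coefficients of differently numbered samples, these values do not show whether the numbers mark a pair. At an unadjusted p under 0.05, 1372 probe sets were called in liver (2080 without the filter, 2098 with array weights, 13219 with the Xist covariate, 611 to 2165 leaving out replicates), 1793 in muscle (3166 without the filter, 488 with the covariate, 768 to 2308) and 1999 for the difference (3789 without the filter, 4624 with the covariate, 600 to 2368). A dim probe set near the filter limit carries little signal over background.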
